A study of Saccharomyces cerevisiae with 11 samples.

Results

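An upstream open reading frame (uORF) is a short coding stretch that begins in the leader of a messenger RNA, before the start codon of the annotated protein. The uORFs described here begin with AUG and encode at least 20 amino acids, and are called long AUG uORFs. They were chosen by their class (upstream), start codon and deposited length, without use of their score. They numbered 2882 of 192230 candidate ORFs in the deposited table (1.50%) and 35.1% of the 8211 AUG uORFs. They were listed under 2008 genes, and 99.5% ended before the annotated start of that gene. Of the others, 4022 AUG uORFs had 6 to 19 codons and 1307 had at most 5.

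The cells were SK1, a strain of the budding yeast Saccharomyces cerevisiae that sporulates efficiently, treated before harvest with 3 µM lactimidomycin (LTM), an inhibitor that mainly holds initiating ribosomes at start codons. Ribosome footprints, the RNA fragments that ribosomes protect, came from 11 libraries with 1 library per group. These were vegetative exponential cells (OD600 0.6), vegetative saturated cells (OD600 10), cells after 0, 1.5, 3, 4.5, 6, 8, 10 and 22 h in sporulation medium, and MATa/a cells, which cannot enter meiosis, after 4.5 h in that medium. The table gives each candidate 1 value over libraries that are not named. No comparison of conditions, replicate spread or depth per library can therefore be given, and intervals below cover counting error over ORFs only, which are not independent where they share a transcript.

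Ribosomes scan a leader from its capped end and usually start at the first AUG in a favourable context, so an AUG uORF can take ribosomes away from the protein below it. After a short uORF, the small ribosomal subunit can stay on the message and start again downstream. Translation of a longer uORF is known to make such reinitiation less likely, as more initiation factors are lost during elongation. In yeast, an adenine 3 bases before the start codon (position -3, counted back from the A of the AUG) is the best known favourable base. GCN4 is the classic case of uORF control, with short uORFs that respond to amino acid starvation.

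The start sites of the long AUG uORFs with the highest values are shown here because the results below turn on them. They were taken as the 10 with the highest deposited rating, which is a score after an adjustment for overfitting, and the 10 with the highest score itself. Both lists share 7 uORFs. Each line gives 12 bases before the start codon, the codon in capitals and 12 bases after it. The sequences are those of the S288C reference (RefSeq, build R64), where an AUG ORF with as many codons lay equally far upstream of the gene's annotated start. The SK1 sequence itself was not used, so single bases may differ.
TRS31, 36 codons, chrIV:1402937-1402963, plus strand: tatatgatgaatATGagtgcatttggc
YDR042C, 22 codons, chrIV:541293-541319, minus strand: tatatcttcttcATGtttgtcatttta
ULP2, 24 codons, chrIX:292345-292371, plus strand: gtgtcgttagaaATGacatttggttct
CRF1, 24 codons, chrIV:911927-911953, plus strand: actaatctgtcaATGgttccagtaaga
CIN10, 23 codons, chrIV:1249886-1249912, minus strand: cacttatagtccATGgtcaaaaagtat
AKR2, 39 codons, chrXV:397278-397304, minus strand: gttccagtttgtATGgctgctattttt
POP4, 22 codons, chrII:728375-728401, plus strand: gaggcaacattaATGaatcctgggtta
ATG39, 22 codons, chrXII:758966-758992, minus strand: ttattcagttttATGcaggttactggc
EBS1, 21 codons, chrIV:861808-861834, plus strand: tgtttttttcctATGaaaagtgtcttc
FMN1, 31 codons, chrIV:936274-936300, minus strand: aataggttattaATGaagagtatgggt
ALD3, 24 codons, chrXIII:600967-600993, minus strand: taattgtataaaATGgcaaatctggat

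Of the 8 start sites from the list by rating, 1 had A at position -3 (TRS31), 1 had G (ULP2) and 6 had T. EBS1, FMN1 and ALD3, which were in the list by score only, had C, T and A there. NDD1 and PHO12, in both lists, had no such match in S288C.

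Each candidate has a deposited score from 0 to 1, the output of a random forest. The forest was trained on annotated and other coding sequences and reads 6 features of the footprint data. Only 1 of them is from the LTM data. The others are from a data set named CHX, which the notes do not describe further. All 11 libraries listed above are of LTM-treated cells, so the score does not rest on LTM footprints alone. A score above 0.5, a cut-off named in the deposited notes, is called rated here. Long AUG uORFs were rated in 594 of 2882 cases (20.6%, exact 95% interval 19.2 to 22.1), in 506 genes. Over all candidates the share was 13.5%, over all upstream ORFs 22.0% and over all AUG uORFs 29.3%. The long ones thus made up 35.1% of the AUG uORFs and 24.7% of the rated AUG uORFs.

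Long AUG uORFs were rated less often than shorter ones. The share was 20.6% at 20 or more codons, 31.6% at 6 to 19 codons (1269 of 4022, 30.1 to 33) and 41.8% at 5 codons or fewer (546 of 1307, 39.1 to 44.5). The difference was -10.9 percentage points from the class of 6 to 19 codons (95% interval -13.0 to -8.87) and -21.2 points from the shortest class (-24.2 to -18.1). The interval of neither difference includes 0. Median scores were 0.336 for the long class, 0.373 for 6 to 19 codons and 0.416 for the shortest class.

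The share was also lower in the longer bins of the long AUG uORFs. It was 24.0% at 20 to 24 codons (198 of 825), 23.8% at 25 to 29 (126 of 530), 20.3% at 30 to 39 (150 of 740), 16.2% at 40 to 49 (63 of 389), 15.7% at 50 to 69 (46 of 293) and 10.4% at 70 to 99 (10 of 96). Neighbouring bins had overlapping intervals, while those of the first bin (21.1 to 27.1) and of the bin of 40 to 49 codons (12.7 to 20.2) did not overlap. The boundary at 20 codons marked no step. The share was 22.6% at 19 codons (44 of 195) and 24.4% at 20 codons (48 of 197), with median scores of 0.351 at both lengths. uORFs of at least 20 codons that begin at a near-cognate codon, which differs from AUG by a single base, were rated in 782 of 6855 cases (11.4%, 10.7 to 12.2). Their share was 14.2% at 20 to 24 codons and 3.31% at 70 to 99.

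**Figure D1:**
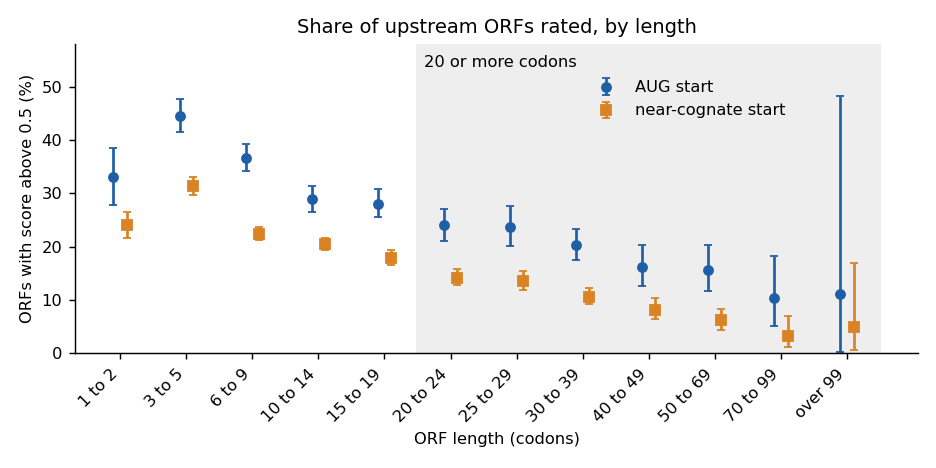
Share of upstream ORFs with a score above 0.5 (y axis, percent) by ORF length in codons (x axis), for AUG starts (circles) and near-cognate starts (squares), with exact 95% intervals. The grey area holds ORFs of 20 or more codons, where the AUG share went from 24.0% at 20 to 24 codons to 10.4% at 70 to 99. The bin over 99 codons has only 9 AUG uORFs.

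Scores of long AUG uORFs gathered near a common low value. Between 0.32 and 0.34 lay 840 of them (29.1%), and the quartiles of all were 0.325 and 0.434. A score above 0.8 was reached by 85 and above 0.9 by 15. On either side of the cut-off, 138 scored from 0.5 to 0.55 and 99 from 0.45 to 0.5.

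The LTM statistic of a start codon is the deposited strength of evidence from the LTM footprints. It is a feature of the forest, so its relation to the score is a description. Its median was 35.3 in rated long AUG uORFs (quartiles 7.12 and 201) and 0.0211 in unrated ones (quartiles 0.00153 and 0.204). The lowest value of a rated one was 1.20, and 770 long AUG uORFs reached it. Of these, 176 were not rated, and 121 of the 176 shared their stop codon with an ORF of higher regression value in the CHX data. Among rated long AUG uORFs 99 of 594 did so.

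**Figure D2:**
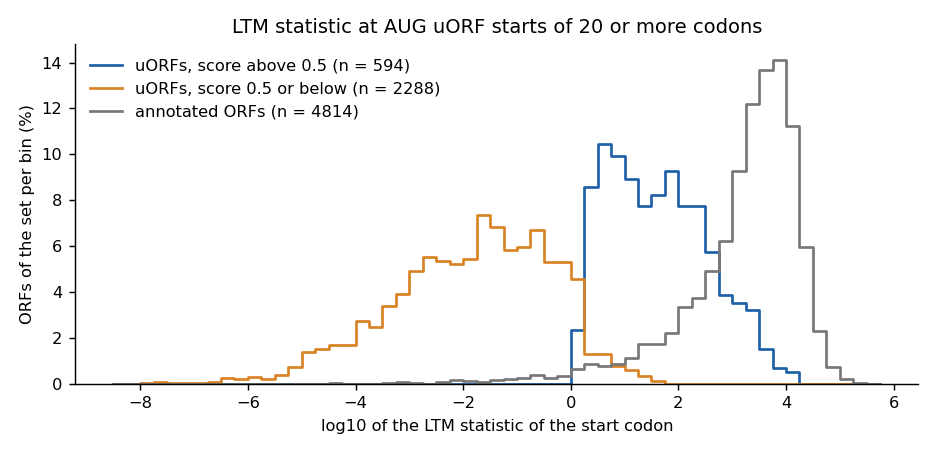
Distribution of the LTM statistic (x axis, log10) as percent of each set per bin (y axis), for rated long AUG uORFs (n = 594), unrated ones (n = 2288) and annotated ORFs (n = 4814). The rated set begins at 1.20 and lies mostly below the annotated set, whose median was 2956.

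The LTM evidence at starts of annotated proteins was far stronger. Their median LTM statistic was 2956, and only 17 rated long AUG uORFs exceeded it. The corresponding start statistic from the CHX data had a median of 0.284 in rated long AUG uORFs, 0.000604 in unrated ones and 53.5 in annotated ORFs. The median over all candidates was 0.323. That value was exceeded by 284 rated long AUG uORFs and not by the other 310. Over all long AUG uORFs, rated or not, the median LTM statistic was 0.0622, against 0.216 at 6 to 19 codons and 0.746 at 5 codons or fewer.

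The highest score was that of the uORF of TRS31, which encodes a subunit of the TRAPP complex that tethers vesicles. This uORF of 36 codons (SK1 chromosome 4, 1394766 to 1394876, plus strand, 373 nucleotides before the annotated start) scored 0.968. Its LTM statistic was 3815, against 0.172 at the annotated AUG, whose ORF scored only 0.239. In AKR2, an ankyrin-repeat protein, the uORF of 39 codons scored 0.877 with an LTM statistic of 3042, against 10.7 at the annotated start (score 0.293). POP4, a subunit of RNase P and RNase MRP, had a uORF of 22 codons 498 nucleotides upstream that scored 0.909, while its annotated ORF scored 0.498. CIN10 had a uORF of 23 codons that ended 7 nucleotides before the annotated start. It scored 0.913 and had 557 times the LTM statistic of the annotated start, whose ORF scored 0.440.

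In the other 6 of the 10 with the highest rating the annotated ORF was rated too. ULP2, a protease that removes the SUMO modifier, had a uORF of 24 codons with a score of 0.909 and the highest CHX start statistic of all long AUG uORFs, 2160. Its LTM statistic was 1261, against 34.7 at the annotated start. NDD1, an activator of G2/M genes, had a uORF of 22 codons (score 0.938) with 3.84 times the LTM statistic of the annotated start. For CRF1, a corepressor of ribosomal protein genes, the uORF of 24 codons scored 0.925 and the ratio was 3.24. ATG39, an autophagy receptor of the nuclear envelope, had a uORF of 22 codons (score 0.933, ratio 19.4), and YDR042C one of 22 codons (score 0.940, ratio 48.3).

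PHO12, an acid phosphatase, had the lower LTM statistic at the uORF. Its uORF of 27 codons scored 0.922 with 0.0278 times the LTM statistic of the annotated start, which was 24725. PHO12 has a near-identical paralogue, PHO11, so reads of the 2 may not be separable. The other 9 of the list by rating had a stronger LTM statistic at the uORF. Rating and score both use that statistic, so the choice of either list favours a high value at the uORF. Among all rated long AUG uORFs with an annotated ORF in the table, 94 of 518 exceeded the annotated start.

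The list by score held EBS1, FMN1 and ALD3 in place of ULP2, AKR2 and POP4. The LTM statistic was stronger at the uORF in 7 of its 10 cases, and 2 of the annotated ORFs were not rated, against 9 and 4 in the list by rating. The uORF of EBS1, a protein related to Est1, had 21 codons, a score of 0.935 and 63 times the LTM statistic of the annotated start. The uORF of FMN1, the riboflavin kinase, had 31 codons, a score of 0.923 and a ratio of 0.447. That of ALD3, an aldehyde dehydrogenase, had 24 codons, a score of 0.923 and a ratio of 0.574, and ALD3 has a close paralogue, ALD2, so its reads may not be separable. The highest LTM statistic of all long AUG uORFs, 13752.9, was in neither list, at the uORF of 25 codons of RDR1, a repressor of drug resistance genes (score 0.887), and was 2.84 times that of the annotated start. The 10 with the highest rating had 22 to 39 codons, with 7 of them at 24 or fewer, and began 79 to 498 nucleotides before the annotated start.

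The LTM statistic of each long AUG uORF was next set against that of the annotated start of its gene, where both were in the table. The ratio compares strength of evidence and is not a measured ratio of initiation. For 518 rated ones the median ratio was 0.0254 (95% interval of the median 0.0154 to 0.0336), with quartiles of 0.00277 and 0.316. In 94 of the 518 (18.1%) the uORF start exceeded the annotated start, and in 43 by more than 10 times. Among rated uORFs of 6 to 19 codons the median ratio was 0.0247 and 234 of 1132 exceeded the annotated start (20.7%). Among those of 5 codons or fewer the median was 0.0403 and 126 of 488 did so (25.8%). For 2135 unrated long AUG uORFs the median ratio was 9.15e-06. The score uses the LTM statistic of the uORF, so a higher ratio in rated ones than in unrated ones is built in.

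**Figure D3:**
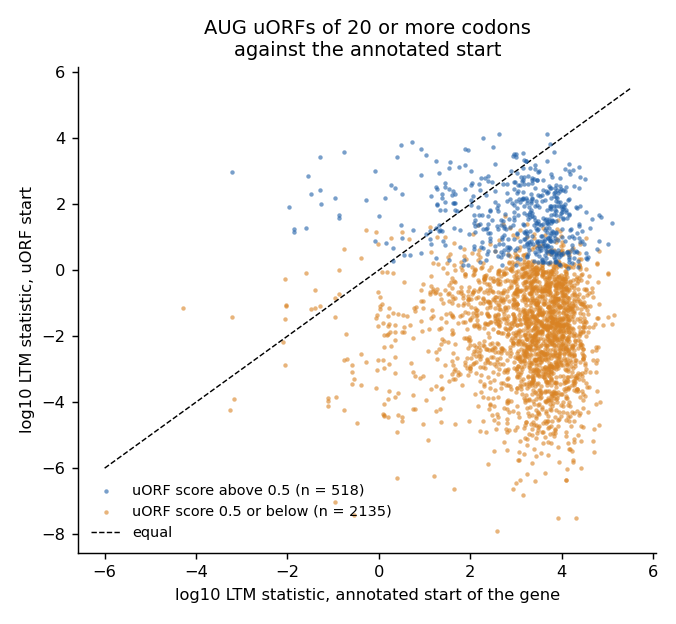
LTM statistic at the uORF start (y axis, log10) against that at the annotated start of the same gene (x axis, log10), 1 point per long AUG uORF, rated (n = 518) or unrated (n = 2135). Points above the dashed line have the higher LTM statistic at the uORF, which held for 94 rated and 23 unrated ones.

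The annotated start is the denominator of this ratio, so a weak one raises it. Of the 94 rated long AUG uORFs that exceeded the annotated start, 54 were in genes whose annotated ORF was rated too. The 5 with the highest ratios lay in YJL213W, YNL097W-A, KIN3, TRS31 and YIR030W-A, and none of these 5 annotated ORFs was rated. KIN3, a protein kinase, had a uORF of 27 codons with a score of 0.734 and an LTM statistic of 727, against 0.0277 at its annotated start (ORF score 0.104). The uORF of YJL213W had 90 codons, a score of 0.866 and an LTM statistic of 966, while the annotated start had 0.000602. A ratio against a value that small depends on the smallest evidence in the table. YNL097W-A and YIR030W-A are classified as dubious, so their annotated start is not a firm point of reference.

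Per gene, the annotated ORF was rated in 400 of 444 genes with a rated long AUG uORF (90.1%) and in 1322 of 1404 genes with unrated ones only (94.2%). Genes were also split into 4 equal groups by the LTM statistic of the annotated start. From the lowest group to the highest, 23.5%, 18.6%, 21% and 15% of long AUG uORFs were rated. The order was not steady, and the intervals of the lowest (20.3 to 26.8) and the highest group (12.3 to 17.9) did not overlap. Long AUG uORFs of dubious genes were rated in 34.2% of 79 cases, those of uncharacterized genes in 24.1% of 489 and those of verified genes in 19.4% of 2312.

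Distance from the annotated start was examined next. Transcript starts were not used, so whether each candidate lies within the messenger RNA is unknown. Leader here means the sequence before the annotated start. Long AUG uORFs began at a median of 280 nucleotides before the annotated start, against 205 for uORFs of 6 to 19 codons and 179 for the shortest. Rated ones began at a median of 269.5 nucleotides and unrated ones at 282, a difference of -12.5 nucleotides whose interval, -37 to 13, includes 0. At a cut-off of 0.1 the difference was 5 nucleotides. In the class of 6 to 19 codons the medians were 164 for rated and 220 for unrated uORFs. Only 3.44% of long AUG uORFs began within 100 nucleotides of the annotated start, where an ORF of this length barely has room, against 20.9% and 29.1% in the classes of 6 to 19 and of at most 5 codons.

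Those near the annotated start were rated most often. Within 100 nucleotides the share was 41.4% (41 of 99, interval 31.6 to 51.8), close to the 45.2% of uORFs of 6 to 19 codons there (41.8 to 48.7). From 101 to 150 nucleotides it was 23.6%, and in the 4 bins from 151 to 600 nucleotides it lay between 18.6% and 20.6%. The class of 6 to 19 codons was above the long class in each of the 7 distance bins, with overlapping intervals in the nearest bin, in that from 301 to 400 and in that over 600 nucleotides. In the other 4 bins the intervals did not overlap. With the nearest 100 nucleotides left out, the difference between these classes was -8.05 points, and that from the shortest class -15.9 points. In 1141 genes that had both a long AUG uORF and one of 6 to 19 codons, the shares were 23.3% (392 of 1684) and 32.7% (631 of 1930).

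**Figure D4:**
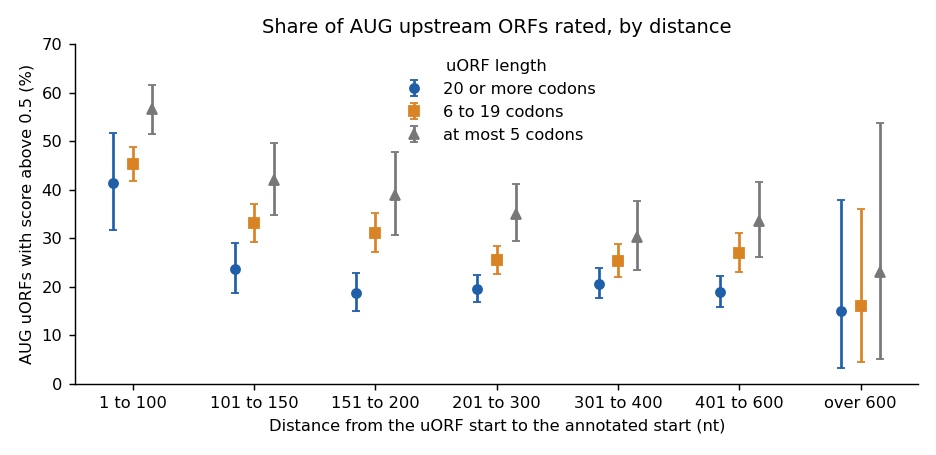
Share of AUG uORFs with a score above 0.5 (y axis, percent) by distance from the uORF start to the annotated start in nucleotides (x axis), for uORFs of 20 or more codons (circles), 6 to 19 (squares) and at most 5 (triangles), with exact 95% intervals. The long class was at 41.4% in the nearest bin and between 18.6% and 20.6% from 151 to 600 nucleotides.

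Reading frame, opposite strand and chromosome were compared next. By reading frame relative to the annotated start, the share rated was 21.8% in frame, 21.2% at an offset of 1 and 18.8% at an offset of 2, with overlapping intervals. Long AUG uORFs that lay over an annotated coding sequence of the opposite strand were rated in 65 of 382 cases (17%, 13.4 to 21.2), and the others in 21.2% of 2500 (19.6 to 22.8). Over the 16 chromosomes the share ranged from 8.57% (3 of 35 on chromosome 1) to 29.6% (29 of 98 on chromosome 9). Some of these intervals did not overlap, such as those of chromosome 12 (28.5%, 22.9 to 34.5) and chromosome 4 (15.7%, 12.2 to 19.8). That pair was picked from the 16 chromosomes after the values were seen. The intervals are not adjusted for the number of pairs.

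Other uORFs of the same leaders were counted. Of the 506 genes with a rated one, 242 also had a rated shorter AUG uORF and 229 a rated near-cognate uORF, while 158 had no other rated uORF. In 499 genes with a rated long AUG uORF and at least 1 more upstream candidate, the strongest LTM statistic of the leader was at a rated long AUG uORF in 282. It was at a shorter AUG uORF in 119, at a near-cognate uORF in 96 and at an unrated long AUG uORF in 2. These genes were chosen by a score that uses the LTM statistic, and that choice favours rated long AUG uORFs in this count. Most genes had a single long AUG uORF (1376 of 2008), 448 had 2, and INP1 had the most, 6, of which none was rated.

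Several rated long AUG uORFs in 1 leader occurred in 74 genes. PIR1, a cell wall glycoprotein, was the one gene with 4, and 12 genes had 3. Its uORFs of 24, 29, 23 and 55 codons began 467, 338, 268 and 171 nucleotides before the annotated start and scored 0.812, 0.823, 0.778 and 0.840. Those of 29 and 23 codons overlap at their ends in different frames. The last of them ended 3 nucleotides before the annotated start and had 2.47 times its LTM statistic, while the other 3 had 0.0983 to 0.165 times. Of these 12, TMA108 and YGR068W-A had the highest summed scores. TMA108, a ribosome-associated protein, had 3 rated ones, of which the pair of 24 and 29 codons shared a stop codon and scored 0.885 and 0.812. The 3 of the dubious YGR068W-A were of 21, 40 and 60 codons with 1 stop codon, all over the coding sequence of YGR068C on the opposite strand.

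Stop codons were shared by some of them. There were 495 long AUG uORFs that shared 1 of 233 stop codons with another long one. The inner AUG then lies within the outer ORF in its frame. Shorter AUG ORFs and near-cognate ORFs with the same stop codon were not counted here, so sharing over all candidates is more common. The outermost AUG was rated in 39 of 233 cases (16.7%) and an inner AUG in 50 of 262 (19.1%). At 166 of the 233 stop codons none was rated, at 47 exactly 1 and at 20 more than 1.

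The longest entries were set against the deposited SK1 annotation. Of the 9 with 100 or more codons, 5 lay over an annotated coding sequence of the same strand, and the longest that did not was the 118-codon uORF of PLB3 (score 0.410). The longest of all, listed with 773 codons upstream of the dubious YLR222C-A, began at the annotated start of IFH1, a coactivator of ribosomal protein genes, and had a score of 0.724. The annotation gives IFH1 1084 codons. The second longest, 578 codons, began at the annotated start of PSP1, which is annotated with 840 codons, and scored 0.277. After that of YLR222C-A, the longest rated ones were in YJL213W (90 codons, score 0.866), CMR3 (89, 0.894), YOR342C (87, 0.600) and HOP2 (83, 0.679).

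In all, 6 listed long AUG uORFs began at an annotated start codon and had fewer codons than the annotated protein. Beside IFH1 and PSP1 these were at YDR024W, YER119C-A, YMR194C-A and AQY2. AQY2, a water channel, had an ORF of 43 codons there, against 152 annotated codons, with a score of 0.909 and an LTM statistic of 2254. Of these 6, 4 began at the annotated start of the gene they were listed under, which goes against the label upstream. The entries at IFH1 and YER119C-A were listed under other genes, YLR222C-A and AVT6, and lay upstream of those. Without any ORF over an annotated coding sequence of the same strand, the share rated was 20.6%, as before.

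One long AUG uORF was equal to a protein of the reference annotation. The uORF of 50 codons in the leader of RTN2, a reticulon that shapes the endoplasmic reticulum, matched the whole coding sequence of YDL204W-A in S288C (R64, chrIV:94133-94285, plus strand). Its start site is shown because it links a rated uORF to an annotated protein.
RTN2, 50 codons, chrIV:94121-94147, plus strand: aggagagaaggaATGttatatgggaat
It began 472 nucleotides before the annotated start of RTN2, scored 0.740 and had an LTM statistic of 18.5, which was 0.0336 times that of the RTN2 start. An inner AUG of the same ORF, giving 41 codons, scored 0.707.

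Sequence context was read in S288C for the 1880 long AUG uORFs (65.2%) with an ORF of the same length at the same distance. The matched part was 65.0% of rated and 65.3% of unrated long AUG uORFs. Position -3 held A in 36.8% of 386 rated and 31.4% of 1494 unrated long AUG uORFs. The difference was 5.40 points, with a 95% interval of 0.156 to 10.8. At rated annotated starts the share was 64.3% of 4441. By base at position -3, the share rated was 23.2% for A (142 of 611), 20.5% for G, 18.9% for T and 18.2% for C, with overlapping intervals.

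The size of this difference depended on the cut-off, and its sign changed at the highest one. Above a score of 0.8, 25 of 55 matched long AUG uORFs had A at position -3 (45.5%), a difference of 13.3 points from the rest. At a cut-off of 0.9 the difference was -5.26 points. Only 15 long AUG uORFs passed 0.9 and not all of them were matched, so that sign rests on few uORFs. Rated uORFs of 6 to 19 codons did not show the same order, with A in 30.6% of 944 rated and 33.7% of 1946 unrated ones. Position -3 was not where rated and unrated long AUG uORFs differed most. The second base after the start codon was T in 42.5% of rated and 34.7% of unrated ones. At 6 to 19 codons it was T in 38.5% and 28.8%, and at rated annotated starts in 19.9%. That base was picked after the values were seen, and no interval was computed for it. Over the 12 bases before the codon, the share of A was 31.3% in rated and 31.9% in unrated long AUG uORFs, against 42.3% before rated annotated starts. The uORFs ended in UAA in 40.7% of rated and 44.4% of unrated cases, in UGA in 33.2% and 29.7%, and in UAG in 26.2% and 26.0%. Median GC content was 37.6% in rated and 38.0% in unrated long AUG uORFs.

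**Figure D5:**
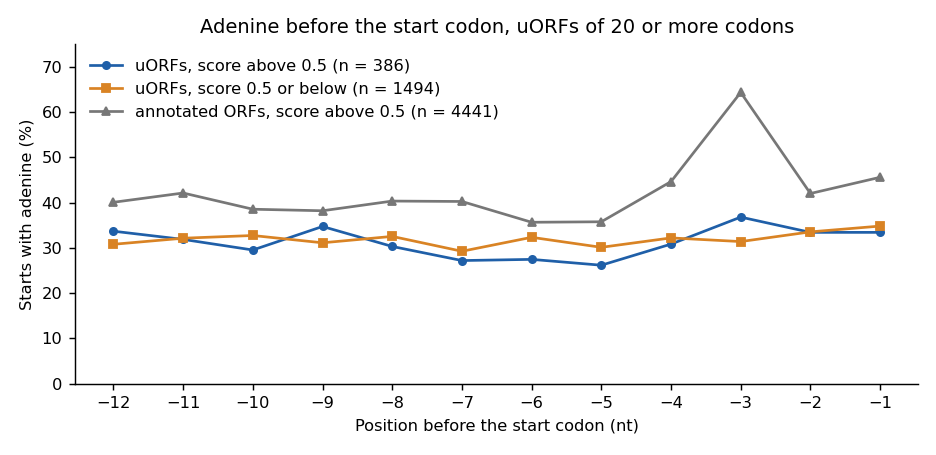
Share of start sites with adenine (y axis, percent) at each of the 12 positions before the start codon (x axis), in S288C, for rated long AUG uORFs (n = 386), unrated ones (n = 1494) and rated annotated ORFs (n = 4441). At position -3 the shares were 36.8%, 31.4% and 64.3%, and elsewhere the uORFs lay between 26.2% and 34.8%.

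Genes were also grouped by function, with lists written from general knowledge. As a baseline, 55.5% of 3619 genes with an AUG uORF had a long one and 14% a rated long one. Of 15 genes with a uORF described in the literature, 9 had an AUG uORF in the table, 5 a long one and 1 a rated long one. That one was TIF4631, which encodes the translation initiation factor eIF4G1. Its uORF of 21 codons began 104 nucleotides upstream, scored 0.629 and had an LTM statistic of 40.6, against 73254 at the annotated start. The long AUG uORFs of YAP1 (score 0.344), PPR1 (0.336), HAP4 (0.328) and LEU4 (0.234) were not rated, and HAP4 had an LTM statistic of 5.93e-07 there. The annotated ORFs of PPR1 (0.3245) and HAP4 (0.325) were not rated either, while those of YAP1 (0.949) and LEU4 (0.914) were. The list names genes, and whether any of these 5 long AUG uORFs is the one described in the literature was not examined. Their scores therefore say nothing about the described uORFs.

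Some yeast genes make a longer, poorly translated transcript in meiosis whose leader holds AUG uORFs, known as a long undecoded transcript isoform. Of 5 such genes listed, 4 had an AUG uORF, 3 had a long AUG uORF and 2 a rated one. ORC1, the largest subunit of the origin recognition complex, had 3 rated ones of 29, 27 and 36 codons, with scores of 0.772, 0.665 and 0.545. They began 124, 388 and 415 nucleotides before the annotated start, and the last pair shared a stop codon. NDC80, an outer kinetochore protein, had 1 of 45 codons, 332 nucleotides upstream, with a score of 0.599 and an LTM statistic of 3.65, against 4781 at the annotated start. That of BOI1 was not rated (score 0.181). The start sites of those in ORC1 and NDC80 that matched in S288C are shown for their place in these leaders.
ORC1, 29 codons, chrXIII:142074-142100, plus strand: cattgagaagagATGaagttgcgcaaa
NDC80, 45 codons, chrIX:77730-77756, plus strand: aatatcgtgattATGggctggttgaga

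Meiotic genes were counted in 2 more lists. Of 32 early meiosis genes, 23 had an AUG uORF and 9 a long one, and 3 of their 16 were rated (18.8%). These were in HOP2, needed for homologous pairing (83 codons, score 0.679), RED1, an axis protein of meiotic chromosomes (21 codons, 0.521), and REC104, which acts in break formation (31 codons, 0.501). Of 27 genes of mid and late sporulation, 23 had an AUG uORF and 13 a long one, and 4 of 16 were rated (25%). They included those of SPO20, a SNARE of the prospore membrane (35 codons, score 0.726), DIT2, which makes dityrosine for the spore wall (31 codons, 0.726), and ADY4, a protein of the meiotic spindle pole body (30 codons, 0.571). The uORF of DIT2 had 1.20 times the LTM statistic of the annotated start.

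Regulators and metabolic enzymes were counted in 3 lists. Transcription factors had 10 of 37 rated (27%), in 10 of 59 listed genes with an AUG uORF, with NDD1 highest, then YRR1 (24 codons, score 0.712) and SWI5 (24 codons, 0.709). Protein kinases had 5 of 31 rated (16.1%), in 5 of 52 genes with an AUG uORF, among them CMK1 (20 codons, 0.703), SKM1 (44 codons, 0.565) and STE11 (29 codons, 0.538). Genes of amino acid biosynthesis had 6 of 36 rated (16.7%), in 5 of 38 genes with an AUG uORF. Their highest were in SER3, a phosphoglycerate dehydrogenase (20 codons, 0.820), LEU9, an isopropylmalate synthase (22 codons, 0.763), and LYS2, the aminoadipate reductase (34 codons, 0.696). The shares rated in these 5 lists ranged from 16.1% to 27%, around the 20.6% of all long AUG uORFs.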

How the data were processed

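Ribosome footprints of LTM-treated cells were processed by the authors. Tools named in the submitters' processing notes are Bowtie2, CASAVA and bcl2fastq 2.17. Settings were not stated. The deposited table holds scores for each candidate ORF (W statistics, regression values, the random forest score and a rating adjusted for overfitting), 1 ratio that sets an ORF against the strongest one ending at its stop codon, and the length as a count of amino acids. The deposited notes describe these columns, but not their scaling or the ending nosat. There were 0 columns for single libraries, so which libraries and what depth stand behind a value is unknown.

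Values were used as deposited. Rated means a forest score above 0.5. The score was fitted by the authors to 6 features, so those features are described and not tested. The main differences in share have Newcombe 95% intervals, shares have exact (Clopper-Pearson) ones and medians have order-statistic ones. For the difference in median distance, opposite ends of the 2 median intervals were subtracted, which gives a wider range. No p-value is given, since the table has no replicates. Coordinates are of the deposited SK1 annotation and count from 1, with start and stop codon included. S288C positions were found by distance from the annotated start, requiring an AUG and the same ORF length in R64, and SK1 coordinates were never placed on S288C. The match, the window and the intervals were tested on simulated data. Python 3.11.15, pandas 2.3.3, numpy 2.4.6, scipy 1.17.1 and matplotlib 3.10.9 were used.

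The long AUG uORFs and gene lists were chosen with earlier results of these data known. Genes are named by rule: the 10 highest by score and the 10 highest by deposited rating (the rule named the score, and the list by rating was added), the 5 longest rated, the 5 highest ratios to the annotated start, the 3 genes with most rated long AUG uORFs (ties by summed score), and members of the gene lists (the 3 best rated, or all for the lists of known uORFs and long isoforms). INP1, PLB3, RDR1, IFH1, PSP1, AQY2, RTN2 and the genes named with them were chosen after their values were seen. Alternatives were other score cut-offs, lengths, 1 ORF per gene or stop codon, overlaps and gene sets.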

Additional observations from a re-analysis of the deposited data

How the results depend on the processing

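Of 46 alternative values for 7 results, 26 stayed within the 95% interval of the reported value, 18 moved outside it and 2 changed sign. For the difference in median distance, the wider range of -37 to 13 nucleotides stood in for that interval. The score cut-off mattered most, and the notes state that no single cut-off serves all classes. Above 0.1, 0.8 and 0.9 the share of long AUG uORFs that passed was 98.8%, 2.95% and 0.520%. The difference from uORFs of 6 to 19 codons was then -0.881, -4.36 and -1.15 points, and from those of at most 5 codons -1.03, -12 and -4.38 points. The long class stayed below the shorter ones under every alternative run. The distance of rated minus unrated starts was 5 nucleotides above 0.1 and -121 above 0.9. The difference in A at position -3 was 14.5 points above 0.1, 13.3 above 0.8 and -5.26 above 0.9. Only 15 uORFs passed 0.9, not all of them matched in S288C, and only 34 failed 0.1. In genes with a rated annotated ORF the share rated was 19% and the median ratio to the annotated start 0.0144, while over all long AUG uORFs, rated or not, that median was 3.16e-05. At 30 or more codons 17.7% were rated. With starts within 100 nucleotides left out, a choice made after seeing the data, the differences were -8.05 and -15.9 points. No paired analysis was possible because no value belongs to a single library. The unknown depth and the unknown transcript starts limit how far a low score can be read as absence of translation.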
